A study of Mus musculus with 2 samples.

Results

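The BCL2 family sets the threshold at which mitochondria commit a cell to apoptosis. 10 genes of the family were followed here in single cells of the mouse retinal pigment epithelium (RPE), the pigmented monolayer that supports the photoreceptors, after subretinal doxorubicin (Dox), a DNA-damaging anthracycline used to drive RPE cells into senescence. They are the pro-survival genes Bcl2, Bcl2l1 (which encodes BCL-XL), Bcl2l2 (BCL-W) and Mcl1, the pore-forming effectors Bak1 and Bok, the BH3-only genes Bad, Bid and Bcl2l11 (BIM), and Bnip3, a mitochondrial BH3-type protein that also serves mitophagy. All 10 of the 10 genes were found by symbol, each on 1 row of the 32285 genes of the deposited tables. They were matched by name. On GRCm38 (GENCODE vM21) the pro-survival genes span Bcl2 (chr1:106538178-106714274), Bcl2l1 (chr2:152780668-152831728), Bcl2l2 (chr14:54883377-54888234) and Mcl1 (chr3:95658788-95663176). The effectors are Bak1 (chr17:27019810-27029009) and Bok (chr1:93685660-93695764), and the remaining genes Bad (chr19:6941861-6951899), Bid (chr6:120891930-120916853), Bcl2l11 (chr2:128126038-128162547) and Bnip3 (chr7:138890836-138909519).

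Pro-survival proteins hold the effectors and the BH3-only proteins in check, and BH3-only proteins release that hold when a cell is damaged. MCL-1 is a short-lived protein, whereas BCL-XL is long-lived, and senescent cells are widely described as leaning on BCL-XL, BCL-W and BCL-2, which is why BH3 mimetics serve as senolytic drugs. BAX, the other main effector, and the cell cycle inhibitor gene Cdkn1a are both targets of p53, and both are given below as reference genes.

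The mice were C57BL/6J animals 3 months old. A control group received 1 µl of PBS under the retina, and the Dox group received 1 µl of Dox at 100 ng/µl. Tissue was taken 7 days later, and 10 eyes of 5 mice were pooled into each of 2 libraries, 1 library per condition, so no difference between conditions has a replicate check and none carries a p-value. By the study's description the drug reaches part of the RPE sheet, and the dissociated RPE, choroid and sclera brought many other cells along.

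After filtering, 20180 control cells and 15426 Dox cells held 115611226 and 99273166 unique molecular identifiers (UMIs, each a captured mRNA molecule counted once). At least 10 Rpe65 UMIs were found in 1526 control cells and 1630 Dox cells. Of these, 106 control cells (6.95%) and 113 Dox cells (6.93%) lay in clusters named for another cell type and were set aside, which left 1420 control and 1517 Dox RPE cells with a median of 16918 and 19460 UMIs. Of 10 RPE marker genes, 9 stood at 10 UMIs per 1000000 (CPM) or more in both libraries. The list includes Rpe65, the gene of the gate, and was also used to name the clusters, so this is no check of the label. In control RPE cells 10 of 12 fibroblast markers and 8 of 9 melanocyte markers reached the same 10 CPM. RNA of genes that mark other cell types was present too, and its source was not tested. Dcn, a fibroblast matrix gene, stood at 639 CPM in control RPE cells and 321 CPM in Dox RPE cells, and at 6.65% and 3.75% of its level in fibroblast-like cells. The study lists Dcn among the markers of an RPE cluster and reads that cluster as an RPE subpopulation. The 2 libraries shared 441 cell barcodes, of which 427 passed the filter and 3 were RPE cells.

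RPE cells were also split by Serpina3n, which encodes a secreted protease inhibitor, at 1000 CPM of the cell's own UMIs. There were 13 Serpina3n-high cells in the control library (0.915%, 95% Clopper-Pearson interval 0.488 to 1.56) and 201 in the Dox library (13.2%, 11.6 to 15.1). Serpina3n made the split, so this count describes it. The Dox share was 6.95% among cells with Rpe65 at or above 2000 CPM, and the control share 2.04% at a Serpina3n threshold of 500 CPM. Near the threshold, between 500 and 2000 CPM, lay 22 control and 82 Dox cells, and the classes are therefore ranges of a continuous level. Serpina3n-high Dox cells were deeper than Serpina3n-low Dox cells, with a median of 28422 against 17779 UMIs. Rpe65 stood at 1950 CPM in the high and 5594 CPM in the low Dox cells, under a fixed gate of 10 Rpe65 UMIs. The part of the gate in the depth difference was not tested.

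3 members that the results turn on are shown by the sequence just upstream of their start. These windows hold the 250 bases before a RefSeq transcription start (GRCm38.p6), written 5′ to 3′ on the gene's strand in lower case, with capitals for every match of ACGTG, the core bound by hypoxia-inducible and E-box factors, and of GGGCGG, the GC box, on either strand. Bcl2l1 and Mcl1 are shown because they take opposite places in RPE cells, and Bnip3 because it is a classical hypoxia target. Bcl2l1 has 3 starts in the table, and the window is the one that abuts the annotated gene start.
Bcl2l1, chr2:152831729-152831978, minus strand: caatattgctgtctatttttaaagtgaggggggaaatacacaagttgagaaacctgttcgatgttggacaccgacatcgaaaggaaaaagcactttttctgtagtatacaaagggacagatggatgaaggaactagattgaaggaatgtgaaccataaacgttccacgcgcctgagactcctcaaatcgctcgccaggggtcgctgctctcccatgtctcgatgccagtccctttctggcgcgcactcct
Mcl1, chr3:95658471-95658720, plus strand: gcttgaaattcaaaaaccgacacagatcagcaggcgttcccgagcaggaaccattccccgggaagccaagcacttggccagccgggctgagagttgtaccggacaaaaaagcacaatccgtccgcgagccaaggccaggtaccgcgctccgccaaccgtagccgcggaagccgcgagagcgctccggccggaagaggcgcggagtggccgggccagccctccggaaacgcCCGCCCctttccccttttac
Bnip3, chr7:138909507-138909756, minus strand: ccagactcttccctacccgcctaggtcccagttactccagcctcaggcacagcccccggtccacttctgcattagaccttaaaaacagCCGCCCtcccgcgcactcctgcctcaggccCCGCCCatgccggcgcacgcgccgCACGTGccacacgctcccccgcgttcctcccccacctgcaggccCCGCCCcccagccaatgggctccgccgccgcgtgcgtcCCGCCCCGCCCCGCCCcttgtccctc
The Bnip3 window holds 1 CACGTG, which reads the same on both strands so that ACGTG matches on each, and 6 GC boxes, some of them overlapping in a GC-rich run close to the start. Of the 10 genes, with 14 windows, Bnip3 alone had ACGTG, a motif that 16.6% of all 32851 windows of this length hold. The GC box was in 9 of the 14 windows, from 8 genes, against 32.7% of all windows, while the median GC content was 64.0% for the 14 windows and 52.4% for all. The STAT-type motif TTCNNNGAA, found in 7.02% of all windows, and the p53 half-site, found in 7.13%, were in none of the 14. A missing match says only that these letters are not in this window.

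Among the pro-survival genes, Mcl1 differed most between RPE cells and all other cells. In control RPE cells Mcl1 stood at 41.1 CPM (95% Poisson interval 38.6 to 43.6, 1044 UMIs), and in all other cells of the same library at 298 CPM, which is 7.25-fold more. In the Dox library the level was 36.1 CPM (34.0 to 38.3, 1098 UMIs) against 323 CPM, or 8.93-fold more in the other cells. RPE cells were the lowest of 8 cell types for Mcl1 in both libraries. Macrophage-like cells were the highest, at 500.4 CPM (control) and 559 CPM (Dox), followed by endothelial-like cells at 467 and 518 CPM, whose interval overlapped theirs. Fibroblast-like cells held 305 and 327 CPM, and melanocyte-like cells, the other pigmented type, held 126 and 118 CPM. Levels are summed UMIs of a gene per 1000000 summed UMIs of those cells, and all intervals on them cover counting error alone.

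Bcl2l1 went the other way. It stood at 39.3 CPM (36.9 to 41.8, 999 UMIs) in control RPE cells and at 45.6 CPM (43.2 to 48.0, 1385 UMIs) in Dox RPE cells, against 24.3 and 26.3 CPM in all other cells, a log2 ratio of 0.69 (0.59 to 0.80) and 0.79 (0.69 to 0.89). Endothelial-like cells, at 50.9 and 46.1 CPM, and Schwann-like cells, at 37.3 and 52.5 CPM, had intervals that overlapped those of RPE cells. So did control smooth muscle-like cells, at 35.8 CPM, and Dox melanocyte-like cells, at 39.5 CPM. Fibroblast-like cells were lowest, at 21.3 and 24.4 CPM. They held 66539050 of the 90179498 UMIs of all other cells in control and 56471659 of 68882398 in Dox, so the ratios above mostly compare RPE cells with them. Among the 10 members, 1 was higher (Bcl2l1) and 5 were lower (Mcl1, Bok, Bcl2, Bcl2l11 and Bid) by more than 1.5-fold in RPE cells than in the other cells, in each library. Of all genes with at least 50 UMIs, 64.2% passed the same fold in the control library and 64.1% in the Dox library, of them 19.2% and 20.8% higher and 45.0% and 43.3% lower, so the members' count of 6 in 10 is near the background, and the median log2 ratio of the members, -0.75 in control and -0.78 in Dox, compares with -0.43 and -0.37 for all genes.

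Bcl2, the founding pro-survival gene, was lowest in RPE cells as well. Control RPE cells held 21.7 CPM (19.9 to 23.6) and Dox RPE cells 19.5 CPM (17.9 to 21.1). NK or T-like cells were highest, at 130 and 133 CPM, with melanocyte-like cells at 114 and 106 CPM. Macrophage-like cells, at 33.6 and 25.4 CPM, came next above RPE cells. In the Dox library their interval, and that of endothelial-like cells, overlapped that of RPE cells. Bcl2l2 in RPE cells lay among the other types. Its level was 15.7 CPM in control and 12.997 CPM in Dox RPE cells, within a range from 8.05 CPM in NK or T-like to 24.4 CPM in melanocyte-like control cells.

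On the death side Bad, a BH3-only gene regulated by survival kinases, was the most abundant member in RPE cells, with 58.7 CPM in control and 59.3 CPM in Dox, close to the 69.2 and 71.0 CPM of all other cells. The effector Bak1 stood at 10.2 and 10.6 CPM and was highest in macrophage-like cells, at 33.3 and 38.9 CPM. Bcl2l11 was lowest in RPE cells, at 7.94 and 6.45 CPM, and highest in NK or T-like cells, at 86.2 and 104 CPM. Its interval in RPE cells overlapped that of melanocyte-like cells in each library. Bid, which links death receptors to mitochondria, was a low gene everywhere, with 2.01 and 1.97 CPM in RPE cells and 11.8 CPM in macrophage-like cells of each library.

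Bok was close to undetectable in RPE cells. Its log2 ratio of RPE to all other cells, -3.68 in control and -4.51 in Dox, was the lowest of the 10 members. Bok gave 30 UMIs in 27 of 1420 control cells and 23 UMIs in 19 of 1517 Dox cells, or 1.18 and 0.757 CPM. It was highest in endothelial-like cells at 25.4 and 35.1 CPM. Set against fibroblast-like cells, RPE cells held 6.87% (control) and 3.92% (Dox) of the Bok level, beside 6.65% and 3.75% for Dcn and 5.91% and 3.28% for Mgp, another fibroblast gene. The Bok share was close to those of Dcn and Mgp, and the part of RNA from other cells in any of the 3 was not tested. The study lists both Dcn and Mgp among the markers of an RPE cluster. Mcl1, at 13.5% and 11.0% of the fibroblast-like level, lay above these shares, as did Bcl2 at 33.3% and 26.7%, while Bcl2l1 stood at 184% and 187%. Schwann-like cells gave 0 Bok UMIs, which allows a level of up to 16.0 CPM in the 59 control cells and 26.2 CPM in the 32 Dox cells.

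Bnip3 did not set RPE cells apart. Its level was 36.4 CPM (34.1 to 38.8) in control and 35.9 CPM (33.8 to 38.1) in Dox RPE cells, next to 36.8 and 38.9 CPM in all other cells. Schwann-like cells had the highest value, 96.0 and 87.4 CPM from 18 and 10 UMIs, and the lowest values were 22.3 CPM in control NK or T-like and 17.6 CPM in Dox macrophage-like cells.

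**Figure D1:**
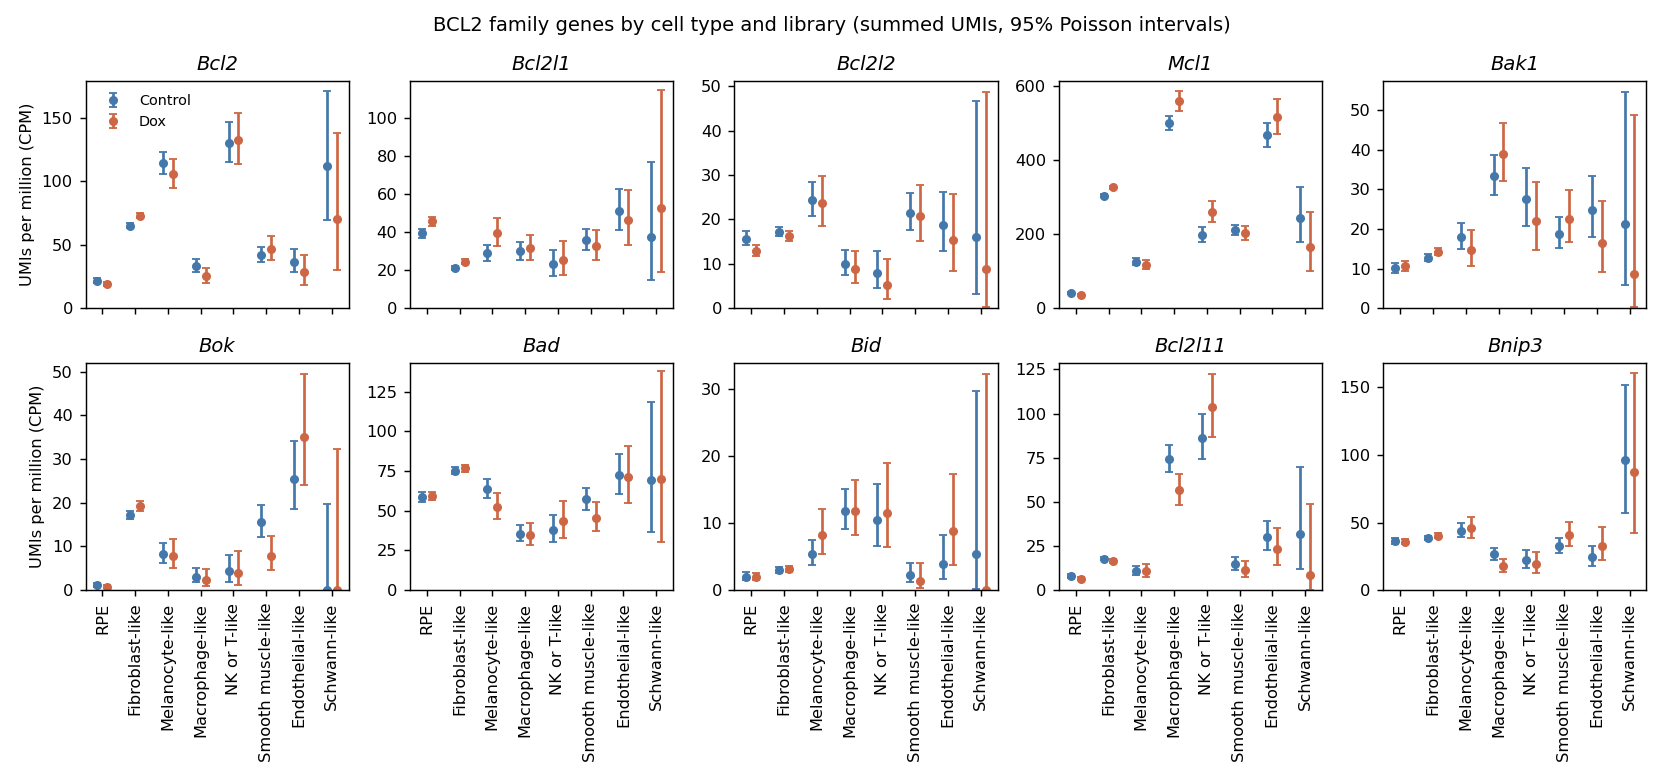
Level of each gene, in CPM (vertical axis, a separate scale for each gene), in RPE cells and 7 other cell types of the control (blue) and Dox (orange) libraries. Points are summed UMIs and bars are 95% Poisson intervals for counting error. Mcl1 and Bcl2 are lowest in RPE cells, where Mcl1 stands at 41.1 and 36.1 CPM, and Bcl2l1 is among the higher types at 39.3 and 45.6 CPM.

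The make-up of the pro-survival UMIs followed from these levels. In RPE cells Mcl1 and Bcl2l1 took similar shares in the control library, 34.9% and 33.4% of the UMIs of the 4 pro-survival genes, and in the Dox library Bcl2l1 took 39.9% and Mcl1 31.6%. In all other cells Mcl1 took 72.7% in control and 73.6% in Dox, with 5.93% and 6.01% for Bcl2l1. Between the other types the Mcl1 share ran from 41.2% in Dox melanocyte-like cells to 89.5% in Dox macrophage-like cells, and the largest Bcl2l1 share outside RPE cells was 17.6%, from 6 UMIs in Dox Schwann-like cells.

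**Figure D2:**
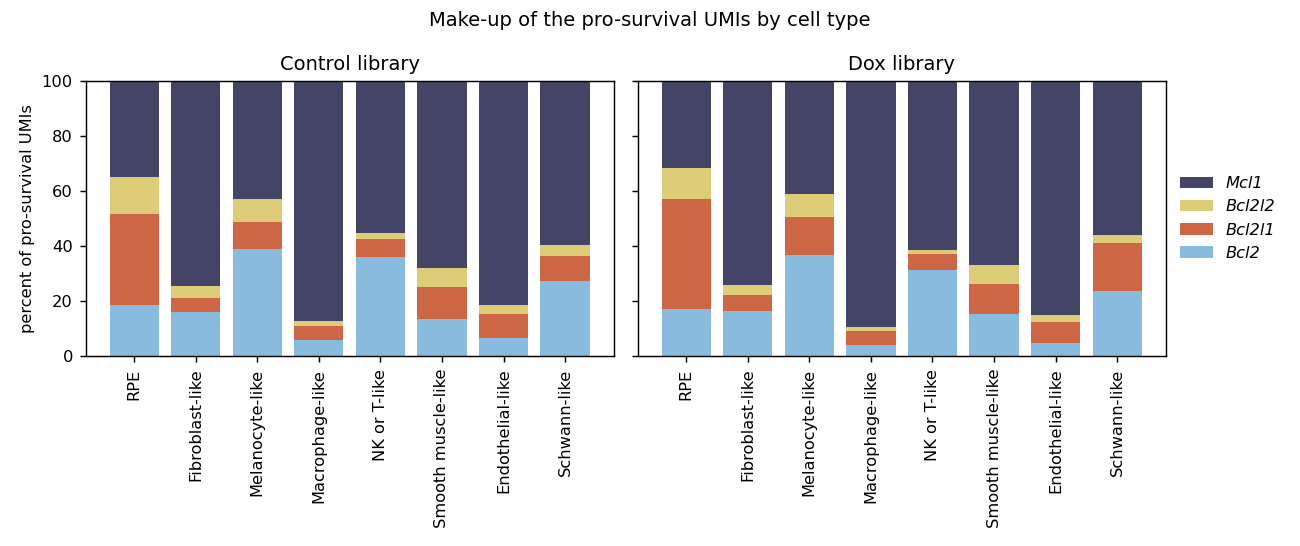
Stacked bars give the percent of pro-survival UMIs (vertical axis, 0 to 100) that came from Bcl2, Bcl2l1, Bcl2l2 and Mcl1 in each cell type, for the control library (left) and the Dox library (right). Bcl2l1 makes up 33.4% and 39.9% in RPE cells, and Mcl1 is the largest block in each other type.

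As a summary of the balance, the UMIs of the 4 pro-survival genes were divided by the UMIs of those and the 5 death-side genes Bad, Bak1, Bid, Bcl2l11 and Bok. This is a ratio of transcripts and says nothing of protein. The pro-survival share was 59.5% in control RPE cells (95% Clopper-Pearson interval 58.2 to 60.9, 2993 of 5027 UMIs) and 59.1% in Dox RPE cells (57.8 to 60.3, 3470 of 5874 UMIs), 2 intervals that overlap. In all other cells it was 76.4% (76.0 to 76.7) and 77.4% (77.0 to 77.8), and the lowest other type was NK or T-like cells at 68.4% and 69.7%. The gap to the pool of all other cells rested on Mcl1. With that gene left out, the share was 48.9% and 49.7% in RPE cells against 46.9% and 47.5% in all other cells. Single types differed from the pool. Without Mcl1, melanocyte-like cells stayed above RPE cells, at 61.15% and 64.3%, and macrophage-like cells fell below them, at 31.8% and 31.2%.

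Within the RPE, Serpina3n-low cells gave 59.7% in control and 59.5% in Dox. The share in Serpina3n-high cells was 49.5% (38.9 to 60.0) in control, from 46 of 93 UMIs in 13 cells, and 57.3% (54.1 to 60.3) in Dox, from 584 of 1020 UMIs in 201 cells. Bax is not one of the 10 genes, and counting it on the death side, a choice made after its values were seen, moved the Serpina3n-high Dox cells farther than the rest. The share then was 31.2% (29.1 to 33.4) in Serpina3n-high and 43.9% (42.7 to 45.2) in Serpina3n-low Dox cells, beside 33.3% (25.5 to 41.9) and 44.3% (43.1 to 45.5) in the control library.

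**Figure D3:**
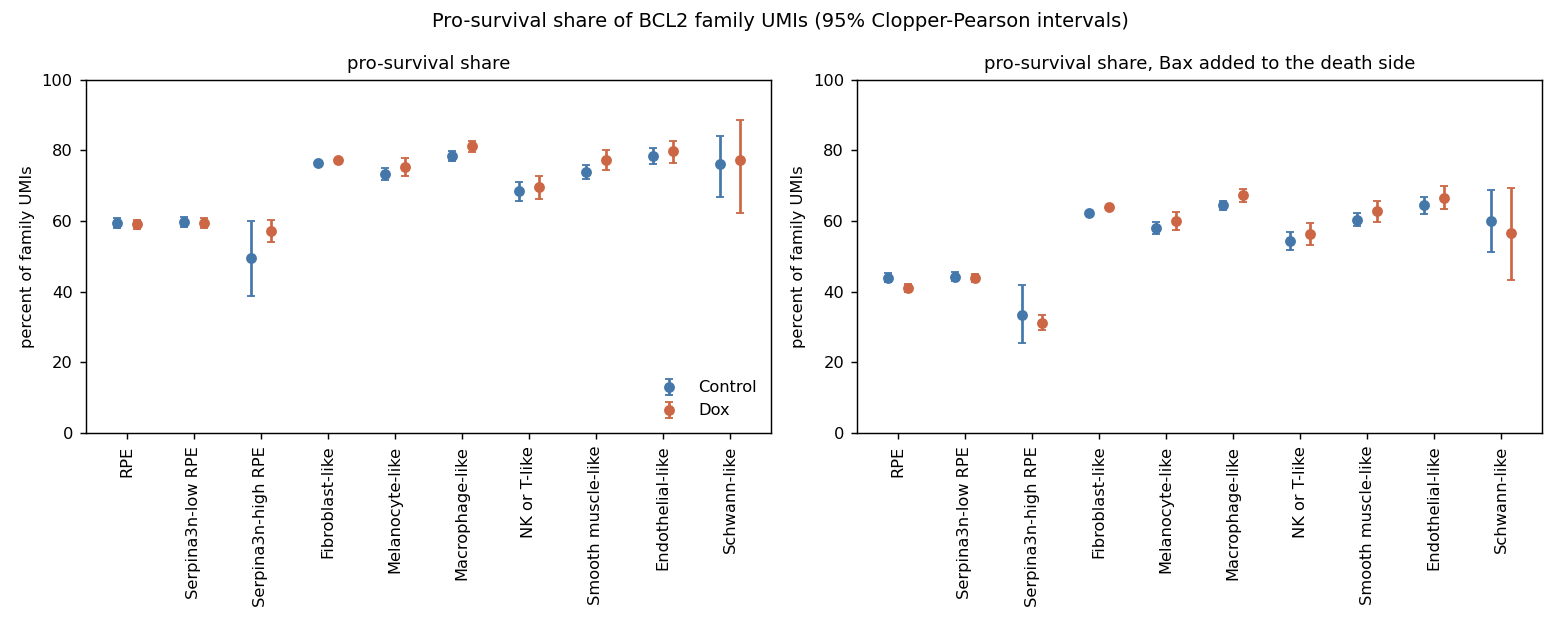
Pro-survival share of the family's UMIs in percent (vertical axis, from 0) for RPE cells, their Serpina3n classes and 7 other cell types in the control (blue) and Dox (orange) libraries, without Bax (left) and with Bax on the death side (right). Bars are 95% Clopper-Pearson intervals. RPE cells sit near 59% on the left, below the other types, and Serpina3n-high Dox cells drop to 31.2% on the right.

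The comparison of Dox with control in RPE cells asks whether the treated epithelium as a whole had moved this balance. Most members lay within a narrow band of their control level. The exception by size was Bok, lower with a log2 ratio of -0.64 (-1.49 to 0.19), whose interval includes no difference and which rests on 23 Dox and 30 control UMIs. That is 1 of 10 members past 1.5-fold, beside 7.42% of the 12623 genes with at least 50 UMIs (5.73% lower), and the median log2 ratio was -0.09 for the members and -0.01 for all genes. For scale, Cdkn1a was at 108 CPM in Dox and 40.03 CPM in control RPE cells, with a log2 ratio of 1.44 (1.33 to 1.54), and Bax was at 84.4 CPM in Dox and 69.6 CPM in control, with a log2 ratio of 0.28 (0.19 to 0.37).

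Among the pro-survival genes, Bcl2l1 was higher with Dox, from 39.3 to 45.6 CPM, and its log2 ratio was 0.21 (0.10 to 0.33). Bcl2l1 was also higher in Dox fibroblast-like cells, 0.19 (0.09 to 0.30), and in Dox melanocyte-like cells, 0.45 (0.10 to 0.78). In the melanocyte-like cells Rpe65 stood at 680 CPM in control against 1585 CPM in Dox, and Serpina3n at 60.6 against 668 CPM. Their median depth was 1296.5 against 779 UMIs. In the fibroblast-like cells Rpe65 stood at 203 against 286 CPM, and Serpina3n at 59.2 against 134 CPM. The part of RPE RNA in the Bcl2l1 value of either type was not tested. Bcl2l2 was lower in Dox RPE cells, with a ratio of -0.27 (-0.48 to -0.07), and Bcl2 differed by -0.15 (-0.32 to 0.02). All of these differences are below 1.5-fold, and with 1 pool of eyes per condition the spread between pools is unknown.

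For Mcl1 the log2 ratio was -0.18 (-0.31 to -0.06), lower with Dox, and this direction depended on the counting. The log2 ratio was 0.03 with each cell thinned to 2000 UMIs and 0.05 as a mean of the cells' own CPM. Without the cells of highest doublet score, a cut of 286 of 1420 control and 150 of 1517 Dox RPE cells, it was -0.04. It was -0.06 in cells with Dcn below 300 CPM. Fibroblast markers moved with it, since 12 of them summed to 1370 CPM in control and 716 CPM in Dox RPE cells, with 10 and 8 of the 12 at 10 CPM or more and 1 at 0 in each, and their part in the Mcl1 value was not tested.

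On the death side, Bad, at a log2 ratio of 0.02 (-0.08 to 0.12), and Bak1, at 0.06 (-0.18 to 0.30), had intervals that include no difference. Bcl2l11 was lower in Dox, at -0.30 (-0.59 to -0.01), with 202 control and 196 Dox UMIs. Bid had a ratio of -0.02 with a wide interval (-0.59 to 0.54), since it rests on 51 and 60 UMIs. Bnip3 was at -0.02 (-0.15 to 0.11).

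Cells below the Serpina3n threshold gave nearly the same picture. Of the 9 members with 50 UMIs or more there, 0 passed 1.5-fold in either direction, beside 5.94% of all genes. Control and Dox Serpina3n-low cells held 39.2 and 45.6 CPM of Bcl2l1, for a log2 ratio of 0.22 (0.09 to 0.34), and Bcl2l2 at 15.8 and 12.99 CPM, a ratio of -0.28 (-0.50 to -0.06). Mcl1, at -0.17 (-0.30 to -0.04), again turned to 0.11 when thinned and 0.07 as a mean of cell CPM. Bax stood at 69.0 and 68.9 CPM in these cells, whereas Cdkn1a stood at 61.5 CPM in Dox and 39.996 CPM in control. These pooled values mix different ranges of Serpina3n. Below 100 CPM of Serpina3n, Cdkn1a measured 38.1 (Dox) against 37.5 CPM (control), and Bax 65.1 against 68.7 CPM. From 100 to 1000 CPM both genes were higher with Dox, Cdkn1a by 207 against 70.3 CPM and Bax by 92.6 against 72.4 CPM. The Dox cells of that range were shallow, with a median of 9134 UMIs, and the part of depth was not tested.

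Serpina3n-high cells could be compared between libraries only coarsely, because the 13 control cells gave 40 Bad UMIs at most and 0 Bok UMIs. Of 7 members tested, 1 passed the fold, beside 27.5% of all genes (10.5% lower). This was Bad, at 93.2 CPM (66.6 to 127) in the control cells and 59.5 CPM (53.3 to 66.3) in the Dox cells, a log2 ratio of -0.65 (-1.12 to -0.14). The Dox level of Bad was close to the 58.1 and 59.2 CPM of Serpina3n-low cells in control and Dox. Bcl2l1, at 44.3 and 45.6 CPM, Mcl1, at 35.0 and 34.4 CPM, and Bnip3, at 35.0 and 34.9 CPM, had intervals of the ratio that reach 0.63 or more below and above 0 on the log2 scale.

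**Figure D4:**
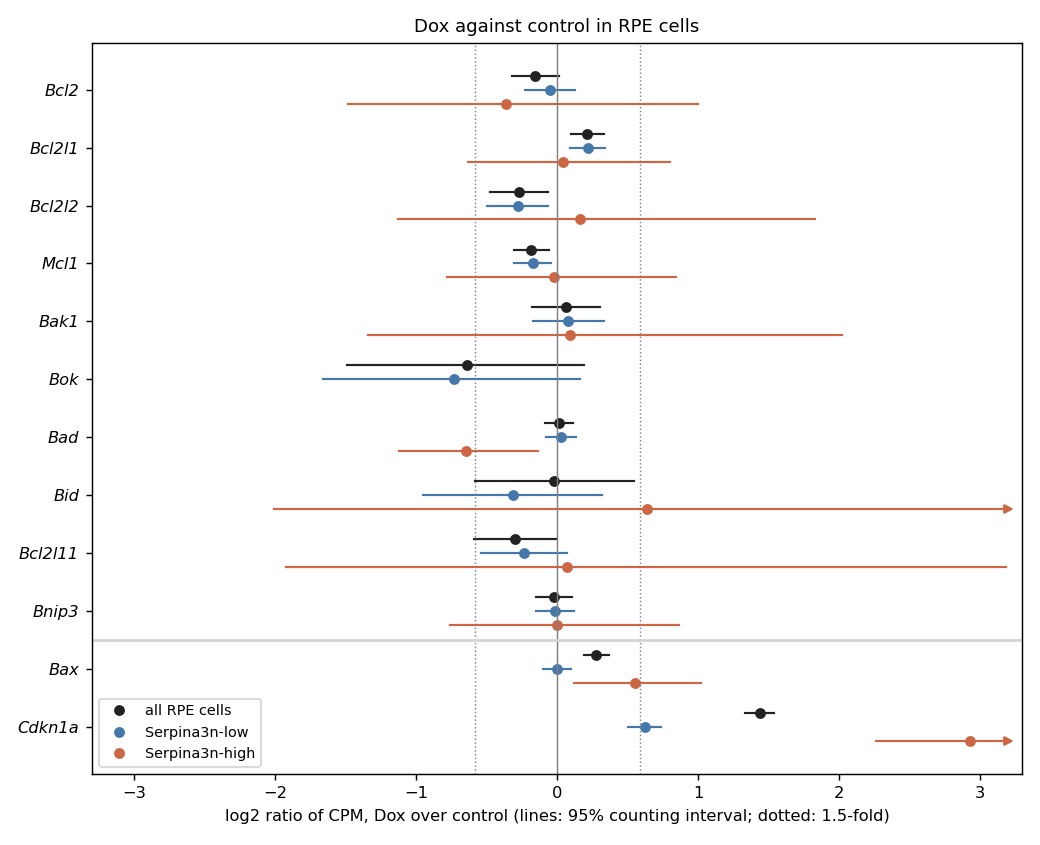
The log2 ratio of CPM, Dox over control (horizontal axis), for the 10 genes and, under the grey line, Bax and Cdkn1a, in all RPE cells (black), Serpina3n-low cells (blue) and Serpina3n-high cells (orange). Lines are 95% intervals for counting error, arrowheads mark intervals that leave the plot, dotted lines mark 1.5-fold, and Bok is not drawn for Serpina3n-high cells, where the control cells had 0 UMIs. The members lie close to 0 in black and blue, and Cdkn1a reaches 1.44 in black.

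Within the Dox library, Serpina3n-high and Serpina3n-low cells share the animals and the library, though not the depth per cell. Bcl2 was lower and Bid higher in the Serpina3n-high cells, and the other pro-survival genes were level. Bcl2 stood at 12.7 CPM (9.87 to 16.0, 70 UMIs) in high and 21.0 CPM (19.2 to 22.9, 522 UMIs) in low cells, a log2 ratio of -0.73 (-1.11 to -0.37). Bid stood at 3.62 CPM (2.21 to 5.59) in high and 1.61 CPM (1.15 to 2.19) in low cells, a log2 ratio of 1.17 (0.32 to 1.98) that rests on 20 against 40 UMIs. These are 2 of 9 members past 1.5-fold, beside 23.4% of all genes (4.91% higher and 18.5% lower), so the count is near the background.

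Fibroblast markers were also lower in Serpina3n-high Dox cells. The 12 markers summed to 367 CPM against 794 CPM in the low cells, with 7 and 9 of them at 10 CPM or more and 2 and 1 at 0, and Dcn stood at 159 against 358 CPM. Fibroblast-like cells hold more Bcl2 than RPE cells, and the part of fibroblast RNA in the Bcl2 value was not tested. Melanocyte markers were higher as a sum, with 9 of them at 3628 CPM in high and 1905 CPM in low Dox cells. Of the 9, 7 and 8 were at 10 CPM or more and 0 without a UMI. Pmel, on this list, went against the sum, at 40.9 CPM in high and 66.2 CPM in low cells. Gpnmb, also on it, is given by the study as a marker of the same RPE cluster as Serpina3n. The study lists Pmel as a marker of another control RPE cluster, where it describes increased melanin synthesis. The sum therefore includes genes that the study also assigns to RPE cells. Melanocyte-like Dox cells held 8.22 CPM of Bid. Rpe65 stood at 1950 CPM in high and 5594 CPM in low cells. The part of melanocyte RNA in the Bid value was not tested. In cells with Dcn below 300 CPM the log2 ratio of Bcl2 was -0.57 and that of Bid 1.17, and without the highest doublet scores they were -0.59 and 1.23. The first Bcl2 value is under 1.5-fold, as is the -0.56 that Bcl2 gave when centred on the median of all genes. Across finer steps of Serpina3n in the Dox library, Bcl2 was 19.7 CPM below 100 CPM of Serpina3n, 29.3 CPM from 100 to 1000, 16.8 CPM from 1000 to 5000 and 9.39 CPM (6.29 to 13.5) above. The second step stood apart in depth, with a median of 9134 UMIs, and in Dcn, at 625 CPM.

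Bcl2l1, at 45.6 CPM in both classes, gave a log2 ratio of 0.00 (-0.20 to 0.20). The same value held for Bcl2l2, at 13.03 and 12.99 CPM, though with a wider interval (-0.39 to 0.38). Mcl1 stood at 34.4 CPM in high and 36.5 CPM in low cells, a ratio of -0.09 (-0.32 to 0.14). Bad, with 59.5 and 59.2 CPM, gave 0.01 (-0.17 to 0.18), and Bnip3, with 34.9 and 36.1 CPM, gave -0.05 (-0.28 to 0.18). Bak1 (-0.12, -0.56 to 0.31) and Bcl2l11 (-0.48, -1.12 to 0.12) had intervals that include no difference, and Bok, with 5 and 18 UMIs, was too sparse for the count.

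Of the reference genes, Cdkn1a differed more than any member there, and Bax by about as much as Bid. Bax stood at 154 CPM in high and 68.9 CPM in low Dox cells, a log2 ratio of 1.16 (1.04 to 1.28), and Cdkn1a at 319 and 61.5 CPM, a ratio of 2.37 (2.27 to 2.47). By step of Serpina3n, Bax ran through 65.1, 92.6, 151 and 156 CPM. Members of a wider list of 35 family and mitochondrial death genes, chosen by function, were past the fold in both directions, with 3 higher and 5 lower among the 25 tested, beside 23.4% of all genes (4.91% higher and 18.5% lower). The higher ones were Bax, the p53 target Bbc3 (PUMA), at a ratio of 1.33 from 19 and 34 UMIs, and the apoptosome gene Apaf1, at 0.61 (-0.14 to 1.31). The lower ones were Bmf (-0.98), the caspase inhibitor Xiap (-0.63), Birc3 (-0.65), Bcl2l12 (-0.62) and Huwe1 (-0.60), the last of which encodes a ubiquitin ligase of MCL-1. Intervals for Bmf and Birc3 include no difference. The median over the wider list was 0.00 and over all genes -0.16.

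In the control library the same split left 13 cells on the high side, with a median of 34870 UMIs against 16856 in low cells. Their median doublet score was 0.31 against 0.12. Bad was higher in the high cells, 93.2 against 58.1 CPM, a log2 ratio of 0.68 (0.19 to 1.14). Bcl2l11 was lower, at -0.78 (-3.83 to 1.09) from 2 UMIs. The 9 melanocyte markers summed to 5736 CPM in these high cells and 2843 CPM in low cells. In each class 8 of 9 were at 10 CPM or more and 0 without a UMI. Pmel, on this list, was lower in the high cells, at 189 against 250 CPM. Gpnmb is again a marker of the study's RPE cluster that holds Serpina3n, and Pmel a marker of another, so this sum too includes genes assigned to RPE cells. Rpe65 stood at 2603 against 5098 CPM. Melanocyte-like control cells held 63.8 CPM of Bad and 10.9 CPM of Bcl2l11. The part of melanocyte RNA in the Bad and Bcl2l11 values was not tested. Bad and Bcl2l11, 2 of 9 members, compare with 42.1% of all genes past 1.5-fold (11.0% higher and 31.0% lower), a share that small counts raise. Bcl2, at 16.3 CPM from 7 UMIs, gave -0.42 (-1.74 to 0.64), and Bax, at 105 against 69.0 CPM, gave 0.60 (0.14 to 1.03). Of 25 genes of the wider list tested, 1 (Bax) was higher and 7 were lower, namely Bcl2a1b, Apaf1 and Birc3 at 0 UMIs, Bcl2l13, Bag1, Xiap and Huwe1.

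**Figure D5:**
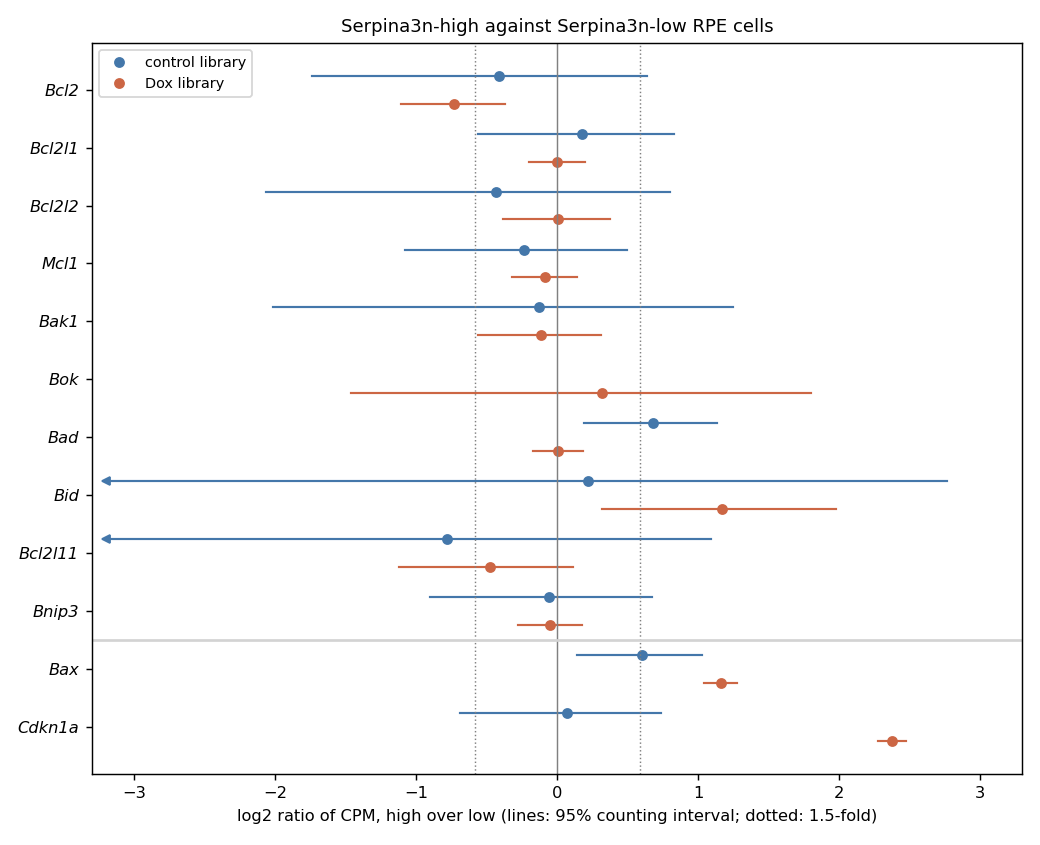
The log2 ratio of CPM, Serpina3n-high over Serpina3n-low RPE cells (horizontal axis), in the control (blue) and Dox (orange) libraries for the 10 genes and, under the grey line, Bax and Cdkn1a. Lines are 95% intervals for counting error, arrowheads mark intervals that leave the plot, dotted lines mark 1.5-fold, and Bok is not drawn for the control library, where the high cells had 0 UMIs. In the Dox library Bcl2 is at -0.73, Bid at 1.17 and Bcl2l1 at 0.00.

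Elsewhere in the wider list, Bcl2a1b, a gene of immune cells, was the 1 gene of 26 tested past 1.5-fold between Dox and control RPE cells, beside 7.42% of all genes, with 67 UMIs in control, 15 UMIs in Dox and a ratio of -2.42 (-3.33 to -1.59). In Serpina3n-low cells it was at -2.47. Macrophage markers, 12 of 12 with a UMI in each library, summed to 235 CPM in control and 155 CPM in Dox RPE cells with 7 and 3 of them at 10 CPM or more, and NK or T markers to 20.5 and 3.23 CPM, with 1 of 10 at 0. Their part in the Bcl2a1b value was not tested. In Serpina3n-high cells Bcl2l13 was the 1 gene of 20 tested past the fold between Dox and control, beside 27.5% of all genes, at 51 against 1 UMIs and a ratio of 1.99 (-0.56 to 7.32).

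Outside the RPE, Dox and control cells differed little in the members. Over all other cells 0 of 10 members passed 1.5-fold, beside 6.52% of all genes, and their median log2 ratio was 0.06. By type, 0 of 10 passed in fibroblast-like cells (background 4.88%) and 0 of 7 in NK or T-like cells (9.91%), and the 1 member with enough UMIs in Schwann-like cells, Mcl1 at -0.56, was within it (18.4%). In each of the other 4 types 1 member was past the fold. These were Bid in melanocyte-like cells, 0.61 higher (-0.19 to 1.39, background 15.5%), Bnip3 in macrophage-like cells, at -0.60 (-1.08 to -0.13, background 8.99%), Bok in smooth muscle-like cells, at -1.01 (-1.86 to -0.24, background 7.79%) and Bak1 in endothelial-like cells, at -0.60 (-1.55 to 0.28, background 9.55%). Bax gave -0.02 (-0.07 to 0.02) over all other cells and Cdkn1a -0.15 (-0.18 to -0.13).

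Not all Rpe65-positive cells were alike. In an unnamed cluster of shallow cells led by Snhg7os and Gm10863 lay 89 control and 106 Dox RPE cells. The 106 Dox cells had a median of 3030 UMIs, Mcl1 at 184 CPM (147 to 227), Bcl2 at 76.2 CPM and Dcn at 2415 CPM, and a pro-survival share of 77.2% (70.8 to 82.8). In the RPE-like cluster of the Dox library Mcl1 was 33.8 CPM, Dcn 288 CPM and the share 58.4% (57.1 to 59.7). The part of foreign RNA in the shallow cells was not tested.

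Per cell, detection was limited by depth. A Bcl2l1 UMI was found in 44.7% of control and 55.4% of Dox RPE cells, and in 8.74% and 9.83% once each cell was thinned to 2000 UMIs, which left out 24 and 22 shallower cells. Bcl2 was found in 30.4% and 28.9%, or 5.37% and 4.08% thinned. Dcn, a fibroblast gene that the study also lists for an RPE cluster, was found in 68.2% and 57.0%, or 31.2% and 21.7% thinned. Such shares depend on depth and are no measure of how many cells express a gene.

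Genes whose level over the 8 cell types was most like that of a member, by Pearson's r of log2(CPM + 1) averaged over the libraries and among 10244 genes, were Sde2 (0.99) and Agpat4 (0.99) for Mcl1, Zdhhc3 (0.99) and Thoc3 (0.98) for Bcl2, Rnpepl1 (0.90) and Azin1 (0.90) for Bcl2l1, and Farp2 (0.99) and Tst (0.98) for Bnip3. With 8 points that share libraries and depth, these values are a description. No other gene compared followed Bcl2l1 more closely than r = 0.90.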

How the data were processed

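Cells of the RPE, choroid and sclera of C57BL/6J mice were profiled with a 10x 5′ kit, 1 library per condition. The authors deposited raw UMI counts per gene and cell, and the file headers name Cell Ranger 4.0.0, with the mm10 genome in the submitters' processing notes; each deposited count is a whole number and is not normalized. Cells with at least 500 UMIs, 200 to 6000 genes, more than 0.8 log genes per log UMI and under 20% mitochondrial UMIs (a share of 0.2) were kept. Cells were clustered with Seurat 5.3.0 (sctransform 0.4.2, 3000 features, 40 components, resolution 0.1) and clusters were named from markers by a rule set after the clusters were seen; the melanocyte-like cluster was led by Hbb-bs, a hemoglobin gene, and the macrophage-like cluster by immunoglobulin genes with 12 of 12 macrophage markers detected. RPE cells had at least 10 Rpe65 UMIs and lay outside clusters named for another type.

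UMIs were summed per cell type and library and divided by the summed total (CPM, per 1000000). Intervals are exact and cover counting error only (95%, Poisson for levels, Clopper-Pearson for shares, conditional binomial for ratios, scipy 1.17.1), and a count of 0 allows 3 UMIs. A gene was tested against the 1.5-fold threshold when both groups together held 50 UMIs. No p-value was computed, since cells are not replicates. On Poisson counts simulated for 12602 genes of the Dox and control RPE comparison, intervals covered the true ratio for 97% of changed genes and 95.5% of the rest. The intervals assume such counts, so this checks the calculation only. Spread between cells or between pools was not simulated. Scrublet (scanpy 1.11.5) called 1941 control and 0 Dox cells, so it did not work in the Dox library; the cells of highest score were left out as an alternative. The named genes are the 10 members, genes of a wider list of 35 past the threshold in RPE cells or a Serpina3n class, the 2 genes most like each of Bcl2, Bcl2l1, Mcl1 and Bnip3 over cell types, and the reference genes. Members and lists were chosen with earlier results of these data known. Promoter windows come from RefSeq, and a short stretch after each start was looked for in GENCODE vM21 transcripts of the gene. For Bcl2, Mcl1 and Bok it was found in neither orientation. Against the GENCODE gene bounds, the Mcl1 window ends short of the gene start and the Bnip3 window overlaps the gene.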

Additional observations from a re-analysis of the deposited data

Results flagged for a closer look

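The log2 ratio of Mcl1 between Dox and control had opposite signs, beyond counting error, in RPE cells and in 3 of the 7 other cell types. The log2 ratio was -0.18 in RPE cells, from 41.1 to 36.1 CPM, and 0.10 in fibroblast-like, 0.16 in macrophage-like and 0.39 in NK or T-like cells, from 199 to 261 CPM in the last. Each of the 4 intervals for counting error lies on 1 side of 0. Mcl1 was lower with Dox, as in RPE cells, in melanocyte-like (126 to 118 CPM), smooth muscle-like (211 to 203 CPM) and Schwann-like cells (245 to 166 CPM). It was higher in endothelial-like cells (467 to 518 CPM). In these types the interval of the ratio includes no difference. With 1 library per condition the difference between cell types was not tested. The RPE value turned to 0.03 when cells were thinned, and its direction depended on the counting, as given above.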

How the results depend on the processing

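No paired analysis was possible because each condition has 1 library. Of 594 alternative values for single members, 569 kept their size within counting error, 21 moved and 4 with an interval on 1 side of 0 reversed. These were Mcl1 between Dox and control, to 0.03 in RPE and 0.11 in Serpina3n-low cells when thinned to 2000 UMIs, and to 0.05 and 0.07 as a mean of cell CPM. The cause of these reversals was not tested. Changes were not spread evenly over the settings. Thinning to 2000 UMIs, which equalises depth, moved 13 and reversed 2 of its 38 values and left 23 the same.

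The pro-survival share moved from 59.5% (control RPE), 59.1% (Dox RPE), 59.7% (control low), 59.5% (Dox low) and 57.3% (Dox high) to 50.3%, 49.8%, 50.4%, 50.2% and 48.1% with Bnip3 on the death side, to 48.9%, 49.7%, 49.1%, 50.1% and 47.5% without Mcl1, to 62.5%, 63.2%, 62.7%, 63.4% and 62.0% when thinned, and to 44.0%, 41.1%, 44.3%, 43.9% and 31.2% with Bax on the death side, where control high cells went from 49.5% to 33.3%. The first 4 became 57.1%, 57.6%, 57.3% and 57.6% without the highest Scrublet scores, and 56.3%, 56.8%, 56.5% and 56.8% in cells with Dcn below 300 CPM. Bax on the death side and the Dcn limit were chosen after seeing the data.

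Members past 1.5-fold between Dox and control RPE cells went from 1 to 0 in the RPE-like cluster, with 20 Rpe65 UMIs, with Rpe65 at 2000 CPM, without the highest Scrublet scores, with low Dcn (Bok at -1.21 on under 50 UMIs), when thinned and as a mean of cell CPM. In Serpina3n-low cells the count went from 0 to 1 for every cell with 10 Rpe65 UMIs. In Serpina3n-high cells it went from 1 to 2 for every such cell, with Rpe65 at 2000 CPM, without the highest Scrublet scores and with low Dcn, to 3 at a Serpina3n threshold of 2000 CPM and to 0 when thinned. Between high and low cells the count went from 2 to 4 (thinned, and a threshold of 500 CPM), 5 (2000 CPM) and 1 (low Dcn) in the control library, and in Dox from 2 to 0 (low Dcn, with Bcl2 at -0.57 and Bid at 1.17 on under 50 UMIs) and to 1 (centred on the median gene, with Bcl2 at -0.56). Thinning leaves fewer UMIs and fewer genes tested.

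The Serpina3n-high share in Dox was 6.95% with Rpe65 at 2000 CPM, 16.6% at a threshold of 500 CPM and 11.2% at 2000 CPM, and in control 2.04% at 500 CPM. With 1 pool of eyes per condition, 13 high control cells and at most 60 UMIs per library for Bid, Bok and Bbc3 in RPE cells, depth limits what these values can show.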
